A study of Mus musculus with 16 samples.

Results

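Tumors grown from MC38 cells in mice carrying a K74R allele of a KLF gene were compared with MC38 tumors from wild-type (WT) mice. Of the 16 RNA-seq samples in the series, 6 were such tumors, 3 from each genotype, and the others were bone marrow and samples labelled MSC. The members were taken by their labels: the 3 K74R tumor libraries, the 3 WT tumor libraries and every gene that passed a filter on low counts in them, which was 14779 of the 55536 genes in the table. MC38 is a mouse colon adenocarcinoma line, and tumors of both groups did not exceed 1000 mm3. In K74R a lysine is exchanged for an arginine. Titles use KO for the mutants, and which KLF gene is meant is not said in the labels. The series' design text gives the genotype to the mouse, so a tumor library mixes RNA of MC38 cells with RNA of infiltrating and stromal cells of the host. No treatment, strain, age, sex or injection site is given, and nothing states that the replicates were separate mice, so every p-value rests on the scatter of these samples alone, and that scatter may be technical. An unexplained letter R stands in the column names of WT tumors and not of K74R tumors, and whatever it marks cannot be told apart from genotype.

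Klf1 is a KLF gene with a published K74R allele, named here as background. It encodes an erythroid transcription factor, which binds CACCC elements in promoters such as that of adult beta-globin, and the lysine in question is a site of SUMO attachment. KLF proteins share a zinc-finger domain that binds GC-rich or CACCC elements, and other members act in vessels, macrophages and epithelia. The comparison asks how tumor expression differs between the host genotypes. In the tumors Klf1 had 0.707, 0.526 and 0.722 CPM (counts scaled to the effective size of each library) in WT and 0.267, 0.625 and 0.538 CPM in K74R. The groups overlapped, and all 6 values were low beside a level of 0.158 to 0.187 CPM for 3 counts in a library. An exchanged amino acid can leave the transcript's level as it is, so these values do not check the labels.

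Total counts ran from 15923437 to 18923751 per tumor, and 22270 to 23087 genes had at least 1 count. The colon identity of the label was scarcely visible. Cdx2, the intestinal master regulator, had 0 counts in all 6 tumors, Krt18 had 3 counts and Epcam 44 counts in total, and 5 of the 28 genes on a list of colon epithelial markers passed the filter. Cdh1 (E-cadherin) stood at 3.94 to 8.12 CPM, while the mesenchymal filament gene Vim stood at 1808 to 2036 CPM in every tumor. Of host cells, macrophage genes were well detected, with C1qa at 90.7 to 171 CPM. The T-cell gene Cd3e (0.312 to 3.31 CPM) and the NK-cell gene Ncr1 (1.19 to 4.16 CPM) were low. The T-cell list summed to between 74.4 and 113 CPM, and the NK and cytotoxic list to between 471 and 994 CPM. Tissue from around the tumor varied by library: the skeletal muscle list summed to between 33.2 and 184 CPM and the adipocyte list to between 222 and 696 CPM, and for both lists the ranges of the genotypes overlapped. On the first principal component, 32.5% of the variance, the WT tumors lay at -27.9 to -9.96 and the K74R tumors at -4.81, 22.8 and 34.8. K74R tumor 1 thus lay nearest to the WT tumors.

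The comparison called 6 of 14779 genes at a Benjamini-Hochberg adjusted p under 0.05 (edgeR, quasi-likelihood), which is 0.0406% of the genes tested. All 6 fell in K74R tumors. No gene rose by edgeR, although 746 genes (5.05%) were higher and 915 (6.19%) lower at a nominal p (before adjustment) under 0.05. limma-voom called 6 genes as well, and DESeq2 called 202 (1.37%), of which 54 were higher and 148 lower. In 2528 genes (17.1%) WT and K74R libraries did not overlap, with K74R above WT in 1198 (8.11%) and below in 1330 (9%). The median log2 fold change (K74R over WT throughout) over all genes was 0.0049, and 48.9% of genes had a negative value, so the scale was centred.

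The genes that fell were the ribosomal RNA model CT010467.1, the mitochondrial leucyl-tRNA synthetase gene Lars2, the 57-base models Gm23935 and Gm24270, which GENCODE lists as miRNAs, the antisense model Gm15564 and the mitochondrial gene mt-Nd6. The 57-base models are shown because several rows of the comparison are copies of a single sequence, read from the GENCODE M21 transcripts on GRCm38 and printed 5′ to 3′, with a capital where a copy differs from Gm23935.
Gm23935 (chromosome 16, 11144125 to 11144181, plus strand): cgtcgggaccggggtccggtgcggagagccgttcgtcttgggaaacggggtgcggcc
Gm24270 (chromosome 9, 56223715 to 56223771, minus strand): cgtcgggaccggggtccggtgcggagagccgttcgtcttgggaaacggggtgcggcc
Gm24187 (chromosome 13, 9834469 to 9834525, minus strand): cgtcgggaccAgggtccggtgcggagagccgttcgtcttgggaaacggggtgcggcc
Gm23935 and Gm24270 were identical over all 57 bases, and Gm24187 carried the single substitution G11A, counted from the 5′ end. A further identical copy, Gm24245 on chromosome 4, had 0 counts in 5 of the tumors. Counts of such copies depend on how reads with several matches were assigned (not given in the sources used here), so the value of any single copy is uncertain. Lars2 and Gm15564 shared an exact stretch of 52 bases between transcripts on the same strand, and their values carry the same uncertainty. CT010467.1 shared no exact stretch over 13 bases with Lars2, Gm15564 or the 57-base models. This model of 1849 bases was the only cytosolic ribosomal RNA sequence compared, and no sequence of the full precursor was at hand. A match of Lars2, Gm15564 or the 57-base models to other parts of ribosomal RNA was therefore not tested.

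CT010467.1 (chromosome 17, 39846353 to 39848827, minus strand) stood at 7039, 7391 and 9592 CPM (WT) against 1889, 2568 and 2983 CPM (K74R). Every K74R tumor was under every WT tumor, averaging 8008 ± 1384 CPM (WT) against 2480 ± 553 CPM (K74R; SD, n = 3 each). The log2 fold change was -1.69 (SE 0.18, edgeR adjusted p = 0.026). Gm23935 stood at 1615, 1606 and 1940 CPM (WT) against 462, 589 and 661 CPM (K74R), a log2 fold change of -1.59 (SE 0.14, edgeR adjusted p = 0.0174). Its identical copy Gm24270 had fewer counts, at 76.8, 86.5 and 102 CPM against 24.9, 30.3 and 38.3 CPM, and its log2 fold change was -1.51 (edgeR adjusted p = 0.0262). In both copies WT tumor 3 was highest and K74R tumor 1 lowest.

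Lars2, which charges the mitochondrial leucine tRNA, lies on chromosome 9 (123366927 to 123462666, plus strand). It had 1444, 1582 and 1865 CPM (WT) against 487, 536 and 682 CPM (K74R), a log2 fold change of -1.52 (SE 0.14, edgeR adjusted p = 0.0174). Gm15564 had 44, 50.5 and 56.4 CPM against 12.8, 18.8 and 20.7 CPM, with a log2 fold change of -1.53 (edgeR adjusted p = 0.0319). Gm24187, just outside the threshold, had 16.2, 18.9 and 22.4 CPM against 5.38, 5.93 and 8.24 CPM (log2 fold change -1.55, edgeR adjusted p = 0.0582). The same tumor was highest and the same tumor lowest in every one of these models. Together CT010467.1, Lars2, Gm15564 and the 57-base models Gm23935, Gm24270 and Gm24187 took 1.03% to 1.34% of all counts in WT tumors and 0.292% to 0.434% in K74R tumors. The labels' protocols name the KAPA mRNA HyperPrep kit, a method that selects polyadenylated RNA. The share of ribosomal RNA in these libraries moved with genotype through CT010467.1, and its part in other differences was not tested. The other ribosomal RNA model with counts, Gm26917, stood at 130, 131 and 163 CPM (WT) against 99.8, 96.2 and 193 CPM (K74R), and its groups overlapped. Mitochondrial ribosomal RNA overlapped too, at 0.183% to 0.232% of counts in WT and 0.177% to 0.304% in K74R.

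**Figure D1:**
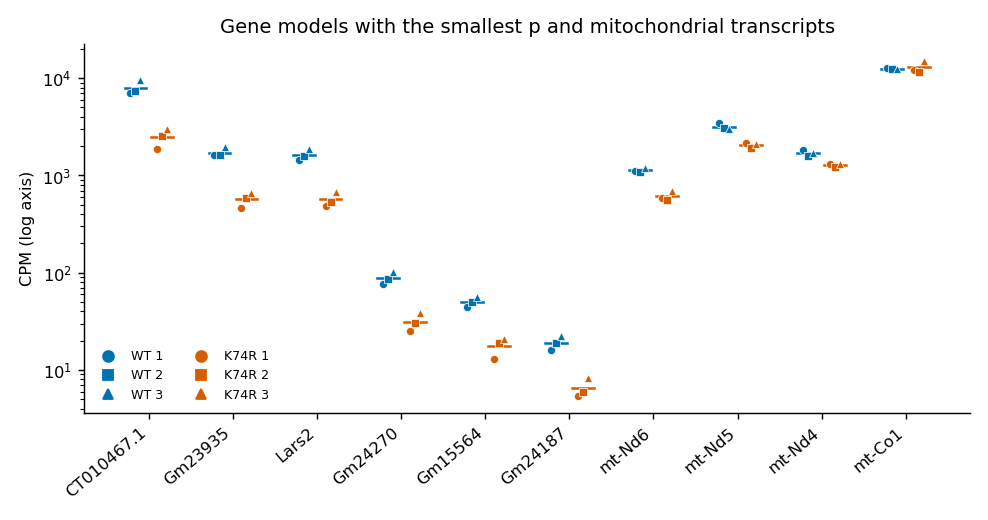
CPM on a log axis of the 6 genes that fell, of Gm24187 and of mitochondrial genes in each of the 6 tumors, with WT in blue, K74R in orange, a symbol per replicate number and a bar at the group mean. CT010467.1 falls from 7039 to 9592 CPM in WT to 1889 to 2983 CPM in K74R, and mt-Co1 overlaps between the genotypes.

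The mitochondrial genome encodes subunits of the respiratory chain on a heavy and a light strand, and mt-Nd6 is the protein-coding gene that lies opposite to all the others. Of the 13 mitochondrial protein-coding transcripts tested, 1 fell and none rose. At a nominal p under 0.05, 7 were lower and none higher, beside 6.19% and 5.05% of all genes. The median log2 fold change was -0.27 beside 0.0049 for all genes. mt-Nd6 (mitochondrial genome, 13552 to 14070, minus strand) had 1123, 1075 and 1190 CPM (WT) against 589, 558 and 696 CPM (K74R). The log2 fold change was -0.88 (SE 0.09, edgeR adjusted p = 0.026), with means of 1130 ± 57.6 and 614 ± 72.3 CPM (SD, n = 3 and 3). Its neighbour mt-Nd5 (11742 to 13565, plus strand), whose end overlaps that of mt-Nd6 in the annotation, had 3423, 3066 and 3026 CPM against 2175, 1925 and 2131 CPM (log2 fold change -0.61, edgeR adjusted p = 0.0607). Without the strand setting of the counting, reads of overlapping genes on opposite strands cannot be told apart. mt-Nd4 (log2 fold change -0.42) and mt-Nd2 (-0.44) did not pass either (edgeR adjusted p = 0.194 and 0.222), and in both every K74R tumor was under every WT tumor. mt-Co1, the most abundant transcript of the tumors, stood at 12741, 12468 and 12399 CPM against 12272, 11566 and 15113 CPM, with no separation. The difference among mitochondrial genes was thus unequal, from mt-Nd6 to mt-Co1.

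Nuclear genes of protein synthesis and respiration stood on the other side. Each of the 39 cytosolic ribosomal protein genes had a positive log2 fold change, 32 of them with a nominal p under 0.05 beside 5.05% of all genes, and the median was 0.25. None passed the adjusted threshold by edgeR, and DESeq2 called 4 higher, beside 0.365% of all genes. Their summed level was 27226, 27101 and 29593 CPM (WT) against 29921, 33092 and 37496 CPM (K74R), so each K74R tumor exceeded each WT tumor and K74R tumor 3 was highest. Rps3 had the smallest p of the list, at 638, 663 and 654 CPM (WT) against 759, 848 and 978 CPM (K74R) (log2 fold change 0.40, SE 0.09, edgeR adjusted p = 0.267). Ribosomal protein transcripts are short, and short genes as a class leaned the same way: the median log2 fold change was 0.09 in the shortest of 5 length classes (up to 1749 bases) and -0.07 in the longest (from 5103 bases). With offsets that remove the trend of each library on length and GC content, 22 of the 39 members had a nominal p under 0.05 and the median was 0.18. Without single tumors the count of members at that p ran from 8 (without WT tumor 2) to 39 (without K74R tumor 1), with 10, 34, 26 and 11 without WT tumor 1, WT tumor 3, K74R tumor 2 and K74R tumor 3. The share of all genes that were higher moved too. It was 3.14%, 2.51% and 6.71% without WT tumor 1, 2 and 3, and 6.41%, 4.66% and 3.17% without K74R tumor 1, 2 and 3. With the offsets it was 4.94%. Of 39 nuclear genes of the respiratory chain tested, 9 were higher and none lower at a nominal p under 0.05, with a median of 0.09. The count was 2, 1, 2 and 2 without WT tumor 1, WT tumor 2, K74R tumor 2 and K74R tumor 3, and with the length and GC offsets it was 3 and the median 0.03. Cox7a2, a subunit of cytochrome c oxidase, had 70, 68.3 and 70.6 CPM (WT) against 75.6, 84.8 and 91.6 CPM (K74R), and its edgeR adjusted p was 0.347.

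Several genes that define macrophages stood lower in K74R tumors, although none passed the edgeR threshold. In bulk tumors, fewer cells of a type and less RNA per cell cannot be told apart. Of 32 macrophage genes tested, 9 were lower and 3 higher at a nominal p under 0.05, beside 6.19% and 5.05% of all genes. DESeq2 called 6 of the 32 lower, beside 1% of all genes, and the median was -0.08. Adgre1, which encodes the macrophage surface protein F4/80, stood at 101, 92.7 and 96.7 CPM (WT) against 64, 60.8 and 41.8 CPM (K74R). Every K74R tumor lay below every WT tumor, and the log2 fold change was -0.80 (SE 0.14, edgeR adjusted p = 0.194). Ms4a7 stood at 44.8, 46 and 47.1 CPM against 33.9, 24.3 and 25.4 CPM, a log2 fold change of -0.72 with edgeR adjusted p = 0.194. Csf1r, the receptor for the growth factor that macrophages need, stood at 66.7, 78.4 and 69.8 CPM against 55.9, 42.4 and 30.7 CPM (log2 fold change -0.74). The complement genes C1qa and C1qc and the Fc receptor gene Fcgr1 also separated the genotypes, with log2 fold changes of -0.50, -0.64 and -0.53. In each of these 6 genes K74R tumor 1 was the highest of the K74R tumors. The macrophage genes C1qb and Mrc1 did not separate the genotypes. C1qb stood at 186.9, 195.4 and 171.2 CPM (WT) against 171.8, 119.9 and 112.8 CPM (K74R). Mrc1 stood at 116.9, 134.1 and 113.2 CPM (WT) against 87.6, 174.6 and 79.4 CPM (K74R), so K74R tumor 2 was the highest of all.

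Other macrophage genes ran the opposite way. Marco, a scavenger receptor of tissue macrophages, stood at 0.163, 0.21 and 0.12 CPM (WT) against 0.64, 1.56 and 1.91 CPM (K74R). The WT values lay at or near the level of 3 counts, so no fold is given. Lyve1, which marks lymphatic vessels and a class of perivascular macrophages, stood at 8.54, 1.42 and 5.78 CPM (WT) against 2.56, 66.8 and 34.1 CPM (K74R), high in K74R tumors 2 and 3 only (edgeR adjusted p = 0.379). Cd209f, a lectin gene of resident macrophages named after its values were seen, had 1.58, 0.105 and 1.62 CPM (WT) against 0.96, 12.6 and 7.94 CPM (K74R), the same pattern. The summed level of the whole macrophage list overlapped between the genotypes, at 4123 to 4380 CPM (WT) against 3607, 3862 and 4224 CPM (K74R). The list's median was 0.03 without K74R tumor 1, 0.00 without K74R tumor 3 and -0.21 without K74R tumor 2. Without K74R tumor 1, which leaves 3 tumors against 2, edgeR called 124 genes (18 higher and 106 lower), among them 7 macrophage genes lower (Adgre1, Csf1r, Ms4a7, Cx3cr1, C1qa, C1qb and C1qc) and 2 higher (Marco and Lyve1). Without any one of the 3 WT tumors or without K74R tumor 2 it called 0 genes, and without K74R tumor 3 it called 7.

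**Figure D2:**
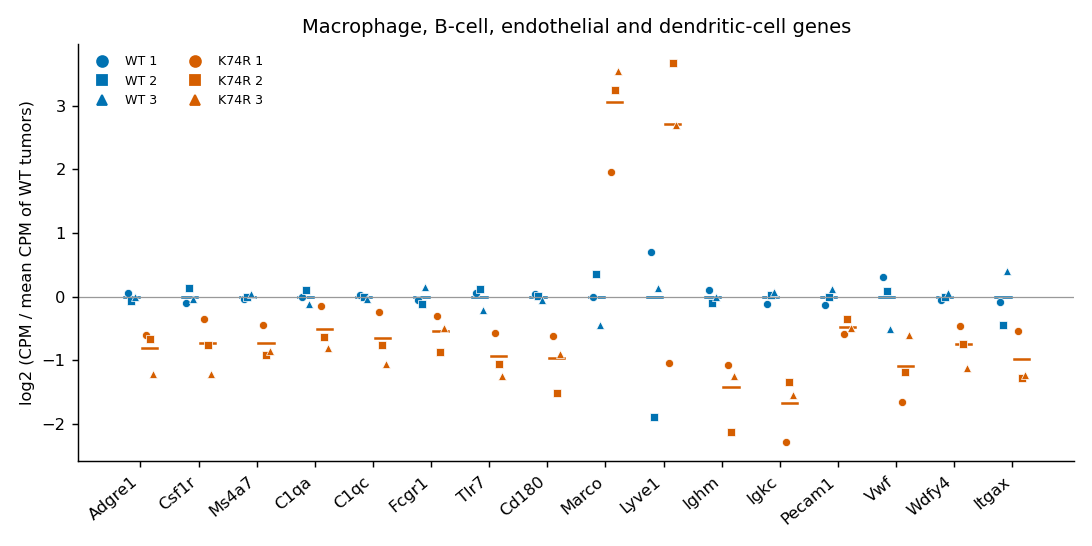
log2 of CPM over the mean CPM of the WT tumors for macrophage and other myeloid genes (Adgre1 to Lyve1), immunoglobulin genes, endothelial genes and dendritic-cell genes in each tumor, with WT in blue, K74R in orange and bars at the group means on the CPM scale. Most of the genes drawn lie below the WT tumors in all 3 K74R tumors, while Marco is above them and Lyve1 is above them in K74R tumors 2 and 3 only. The genes drawn are a selection. Of all 32 macrophage genes tested, 8 lay below without overlap and 2 above. Of all 26 endothelial genes tested, 9 lay below and 0 above, and of all 17 dendritic-cell genes, 7 and 1. Over all genes tested the shares were 9% and 8.11%.

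B cells and plasma cells were sparse. Of the 24 genes on their list 11 passed the low-count filter. Of these 7 were lower and none higher at a nominal p under 0.05, beside 6.19% and 5.05% of all genes. DESeq2 called 2 lower, beside 1% of all genes. Genes that are high in only 1 group pass such a filter through that group, so the count describes only those that passed. Ighm, the immunoglobulin heavy chain of naive B cells, stood at 19.3, 16.9 and 17.9 CPM (WT) against 8.58, 4.12 and 7.59 CPM (K74R), a log2 fold change of -1.41 (SE 0.24, edgeR adjusted p = 0.194). Igkc, the kappa light chain, stood at 3.37, 3.73 and 3.85 CPM against 0.746, 1.44 and 1.25 CPM. Ighg2c, a switched heavy chain, stood at 1.8, 4.31 and 0.963 CPM against 0.0533, 0.0625 and 0 CPM (edgeR adjusted p = 0.175). The genotypes did not overlap in any of these immunoglobulin genes. Segments of immunoglobulin genes resemble each other, and their counts are uncertain to that extent.

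Among dendritic-cell genes, 5 of 17 tested were lower and none higher at a nominal p under 0.05, beside 6.19% and 5.05% of all genes. The median was -0.36, and without WT tumor 3 the count of lower genes was 3 (beside 7.37% of all genes) and the median -0.22. Without K74R tumor 3 the median was -0.24. Wdfy4, needed for cross-presentation of antigen, stood at 28.2, 29.3 and 30.3 CPM (WT) against 21.4, 17.4 and 13.5 CPM (K74R) (log2 fold change -0.75, edgeR adjusted p = 0.222). Itgax, which encodes CD11c, stood at 13.1, 10.2 and 18.4 CPM against 9.54, 5.75 and 5.91 CPM, also without overlap. Of 15 MHC class II presentation genes 13 had a negative log2 fold change and the median was -0.44, but their summed level was 730 to 943 CPM (WT) against 983, 412 and 496 CPM (K74R), so K74R tumor 1 was the highest of all. That median was -0.22 without WT tumor 1 or K74R tumor 3, -0.09 without K74R tumor 2 and -0.96 without K74R tumor 1, where 4 of the genes passed as lower. Of the 22 MHC class I genes 20 were negative, with a median of -0.09, which was 0.00 without K74R tumor 2, -0.14 without WT tumor 3 and -0.16 without K74R tumor 1. H2-T23, a nonclassical class I gene, stood at 45.2, 42.1 and 38.5 CPM against 32.7, 23.2 and 29.3 CPM (edgeR adjusted p = 0.267).

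T-cell genes had 1 of 25 lower and none higher at a nominal p under 0.05, and NK and cytotoxic genes had 1 of 25 lower and 2 higher, beside 6.19% lower and 5.05% higher of all genes. Without K74R tumor 1, 4 T-cell genes were lower, beside 7.58% of all genes. Cd8a stood at 9.52, 6.62 and 7.64 CPM (WT) against 10.1, 0.812 and 6.63 CPM (K74R), lowest in K74R tumor 2. Of 25 checkpoint genes 3 were lower and none higher at that p, and 6 were lower without K74R tumor 1. Pdcd1, which encodes the receptor PD-1, stood at 3.64, 3.1 and 2.77 CPM (WT) against 4.53, 1.94 and 2.03 CPM (K74R). Cd274, which encodes its ligand PD-L1, stood at 36.2, 32.8 and 32.6 CPM against 33.8, 25.6 and 45.2 CPM. Both overlapped, with log2 fold changes of -0.16 (SE 0.35) and 0.04 (SE 0.18). Havcr2, which encodes the checkpoint receptor TIM-3 and is also expressed by myeloid cells, stood at 17.1, 20.1 and 19.7 CPM against 14.3, 11 and 14.4 CPM, and Vsir, which encodes VISTA, at 44.2, 37.5 and 38.7 CPM against 34.7, 20 and 25.4 CPM. In both, every K74R tumor lay below every WT tumor, and neither passed (edgeR adjusted p = 0.316 and 0.345). Among 25 interferon-gamma and guanylate-binding protein genes, 7 were lower and 1 higher at a nominal p under 0.05. Gbp2b stood at 21.2, 23.8 and 11.5 CPM (WT) against 8.96, 0.749 and 4.12 CPM (K74R). Guanylate-binding proteins have close paralogs, so their counts are uncertain. The count of lower genes was 1 and 2 without WT tumor 1 or 2, 2 without K74R tumor 2, and 10 and 11 without WT tumor 3 or K74R tumor 1. In these settings, in that order, 3.78%, 3.68%, 5.82%, 7.37% and 7.58% of all genes were lower.

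Chemokine ligands leaned upward. Of 29 tested, 8 were higher and 1 lower at a nominal p under 0.05, beside 5.05% and 6.19% of all genes. A positive log2 fold change was found in 24 of the 29 (median 0.45). Cxcl11, a ligand of the receptor CXCR3 on activated T cells, stood at 2.77, 2.26 and 3.91 CPM (WT) against 7.46, 6.93 and 6.81 CPM (K74R) (log2 fold change 1.25, SE 0.23, edgeR adjusted p = 0.206). All 3 K74R tumors were about equal and above every WT tumor. GENCODE lists this gene as a polymorphic pseudogene, since some mouse strains carry a broken copy. The neutrophil attractant Cxcl1 stood at 11.2, 10.4 and 16.4 CPM against 15.4, 23.5 and 22.7 CPM (edgeR adjusted p = 0.347). Ccl6, made by myeloid cells, stood at 73.7, 48.1 and 68.7 CPM against 60.5, 220 and 158 CPM, high in K74R tumors 2 and 3 as Lyve1 was. The count of higher ligands was 5 without WT tumor 2, 4 without K74R tumor 2 and 14 without K74R tumor 1, while the median stayed between 0.22 and 0.67 without any single tumor. Among all genes 2.51%, 4.66% and 6.41% were higher without WT tumor 2, K74R tumor 2 and K74R tumor 1.

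Several vessel genes stood lower. Of 26 endothelial genes tested, 9 were lower and 1 higher at a nominal p under 0.05, beside 6.19% and 5.05% of all genes. The median was -0.40, and none passed by edgeR. The list's summed level overlapped, at 656, 670 and 678 CPM (WT) against 551, 696 and 619 CPM (K74R), and K74R tumor 2 was the highest of all. This overlap rests on Lyve1, which is on this list too and was high in K74R tumors 2 and 3, as given above. With Lyve1 left out, the sum of each K74R tumor lies below that of each WT tumor. Pecam1, which encodes the junction protein CD31, stood at 48.3, 52.5 and 57.2 CPM (WT) against 35.2, 41.1 and 37.4 CPM (K74R), a log2 fold change of -0.47 (SE 0.09, edgeR adjusted p = 0.222). Vwf, which encodes von Willebrand factor, stood at 10, 8.57 and 5.72 CPM against 2.56, 3.56 and 5.32 CPM. Neither overlapped between the genotypes, whereas Cdh5 (VE-cadherin) did, at 59.8, 73.5 and 74.6 CPM against 49.2, 63.7 and 49.6 CPM. The pericyte gene Rgs5 stood at 19.5, 28.6 and 31.3 CPM against 17.1, 17.6 and 12.2 CPM (edgeR adjusted p = 0.308), and the basement membrane genes Col4a1 and Col4a2, which vessels deposit, had log2 fold changes of -0.28 and -0.33. The count of lower endothelial genes was 3 without WT tumor 3, and between 6 and 10 without any other single tumor. With all 16 libraries in a single model it was 2. Among all genes 7.37% were lower without WT tumor 3 and 4.74% with all 16 libraries.

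**Figure D3:**
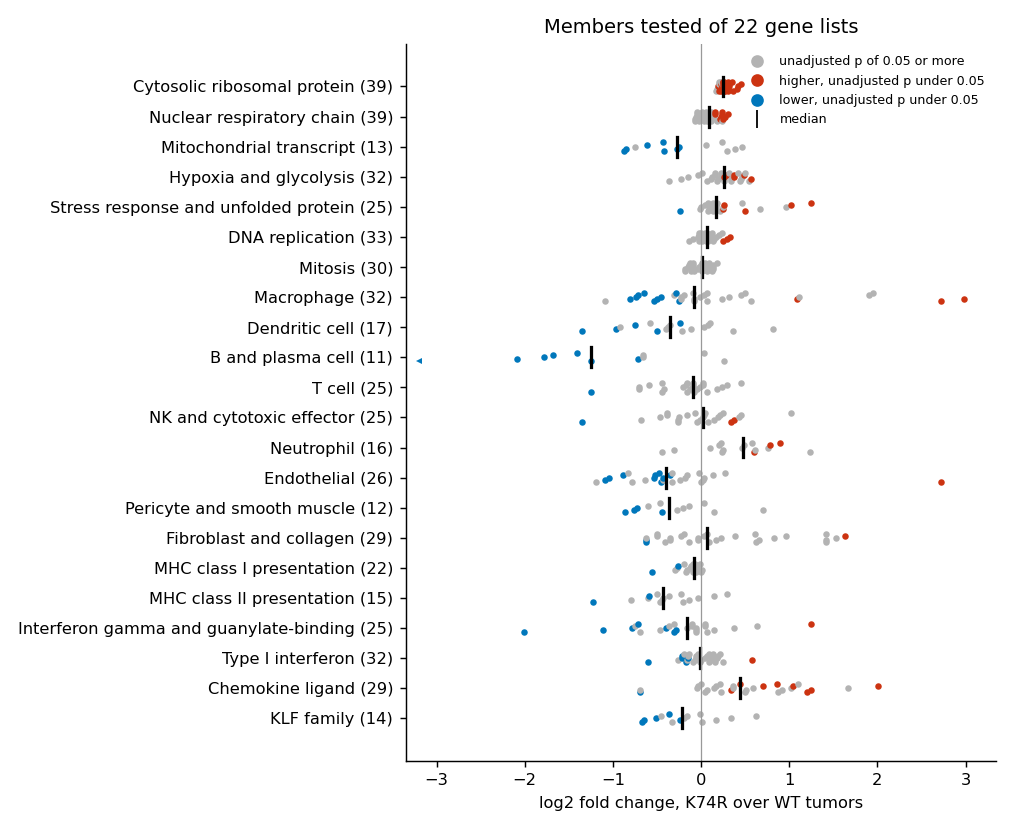
log2 fold change, K74R over WT tumors, of each member tested of 22 gene lists, with the number tested in brackets, the median as a black bar and colour for members with a nominal p under 0.05. The ribosomal protein list lies wholly to the right of 0 around its median of 0.25, and the B and plasma cell list centres on -1.24, with 1 member (Ighg2c, at or under 1 count in each K74R tumor, so that its place is no measured fold) drawn as an arrow at the left edge.

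Genes of the integrated stress response stood higher. In this response, eIF2 kinases raise translation of the transcription factor ATF4, which binds CARE elements (C/EBP-ATF response elements) and drives genes of amino acid supply and glutathione turnover. Of 25 stress genes tested, 5 were higher and 1 lower at a nominal p under 0.05, beside 5.05% and 6.19% of all genes. A positive log2 fold change was found in 22, and the median was 0.17. DESeq2 called 3 higher, beside 0.365% of all genes. Chac1, which encodes an enzyme that degrades glutathione, stood at 5.98, 4.47 and 5.29 CPM (WT) against 10.7, 13.1 and 13.6 CPM (K74R). It had the smallest p of any gene higher in K74R, with a log2 fold change of 1.24 (SE 0.17, edgeR adjusted p = 0.0867). Trib3, a pseudokinase gene induced by ATF4, stood at 43.8, 40.3 and 42.9 CPM against 62.6, 75.6 and 120 CPM (log2 fold change 1.02, SE 0.21, edgeR adjusted p = 0.222). Atf4 itself stood at 263, 260 and 319 CPM against 353, 364 and 476 CPM, a log2 fold change of 0.50 (SE 0.13, edgeR adjusted p = 0.307). In all 3 genes each K74R tumor exceeded each WT tumor, and K74R tumor 3 was highest. Sesn2, a stress-induced inhibitor of mTORC1 counted here among p53 targets, stood at 40.7, 35.8 and 38 CPM against 49.2, 60.7 and 57.3 CPM (edgeR adjusted p = 0.196). Dnajb9, a target of the XBP1 branch of the unfolded protein response, ran the other way, at 30, 31.9 and 28.9 CPM against 24.8, 23.5 and 28.3 CPM. The count of higher stress genes was 5, 4 and 10 without WT tumor 1, 2 and 3. Without K74R tumor 1, 2 and 3 it was 11, 7 and 4, and without K74R tumor 3 the median was 0.11. Among all genes 3.14%, 2.51% and 6.71% were higher without WT tumor 1, 2 and 3. Without K74R tumor 1, 2 and 3 that share was 6.41%, 4.66% and 3.17%.

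Promoters of the stress genes are described because several members stood higher together. The CARE element was searched as TGATGNAAN on both strands of RefSeq promoter windows of GRCm38.p6, 250 bases before to 50 after each start site. It was present in 7 of 24 windows of stress list genes (29.2%), in 2.37% of windows of genes tested in the tumors and in 3.95% of all 32851 windows. The list was made of known stress genes, many of them ATF4 targets, so its share describes the list and not these tumors. The stretches around the element in Chac1 and Herpud1 are printed 5′ to 3′ on the strand of the gene, with the element in capitals, and in both it lies on the opposite strand.
Chac1 (chromosome 2, 119351028 to 119351076, plus strand): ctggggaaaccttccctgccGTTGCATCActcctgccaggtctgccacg
Herpud1 (chromosome 8, 94386296 to 94386344, plus strand): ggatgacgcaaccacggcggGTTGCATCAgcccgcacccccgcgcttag
The element began 194 bases before the start site of Chac1 and 113 bases before that of Herpud1. Herpud1, which encodes a protein of endoplasmic reticulum degradation, stood at 96.3, 93.7 and 101 CPM (WT) against 122.5, 107 and 119 CPM (K74R) (edgeR adjusted p = 0.34). A match describes letters and is no binding site by itself.

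Glycolytic and hypoxia genes leaned upward with the stress genes. Of 32 tested, 28 had a positive log2 fold change, and the median was 0.26. At a nominal p under 0.05, 6 were higher and none lower, beside 5.05% and 6.19% of all genes. Ddit4, a hypoxia- and stress-induced inhibitor of mTORC1, stood at 124.5, 124.9 and 94.6 CPM (WT) against 154, 182 and 171 CPM (K74R) (log2 fold change 0.56, SE 0.12, edgeR adjusted p = 0.222). Ldha, which encodes lactate dehydrogenase A, stood at 1157, 1149 and 1022 CPM against 1255, 1346 and 1694 CPM (edgeR adjusted p = 0.347). Pgk1, Eno1 and Pkm, which encode enzymes of lower glycolysis, showed the same order, with log2 fold changes of 0.37, 0.29 and 0.26. K74R tumor 3 was highest in Ldha, Pgk1, Eno1 and Pkm, and without it the list's median was 0.07 and 3 genes were higher. Without WT tumor 3, 3 genes were, and without K74R tumor 1, 17. Among all genes 3.17%, 6.71% and 6.41% were higher without K74R tumor 3, WT tumor 3 and K74R tumor 1. Among cell-cycle genes, 3 of 33 DNA replication genes were higher at a nominal p under 0.05 (Pcna, Gins3 and Ccne2), no mitosis gene of 30 was higher or lower, and the medians were 0.06 and 0.01. Without WT tumor 3, 10 of the DNA replication genes were higher and their median was 0.13.

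The KLF family, zinc-finger transcription factors to which the mutated gene belongs, had 14 members tested. Of these 5 were lower and none higher at a nominal p under 0.05, beside 6.19% and 5.05% of all genes. DESeq2 called 3 lower, beside 1% of all genes. Klf11, a gene induced by transforming growth factor beta, stood at 23.8, 32.7 and 25.2 CPM (WT) against 17.2, 16.4 and 17.9 CPM (K74R), a log2 fold change of -0.67 (SE 0.13, edgeR adjusted p = 0.222). Klf4, a regulator of macrophage and epithelial differentiation, stood at 93.7, 83.1 and 81.1 CPM against 60.6, 50.8 and 70.3 CPM (edgeR adjusted p = 0.267). Klf2, a gene of quiescent endothelium and lymphocytes, stood at 50.7, 34.6 and 37.5 CPM against 31.1, 25.9 and 21.3 CPM (edgeR adjusted p = 0.316). Klf6, the most abundant member in counts, stood at 283, 290 and 292 CPM against 224, 248 and 264 CPM. None of these overlapped between the genotypes. Several endothelial and macrophage genes stood lower as well. The summed level of the macrophage list overlapped, and that of the endothelial list did so only with Lyve1 included, as given above. The part of these cells in the KLF values was not tested. Klf5 ran the other way, at 16.1, 21.7 and 21.8 CPM against 20, 23 and 32.4 CPM, and its groups overlapped.

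**Figure D4:**
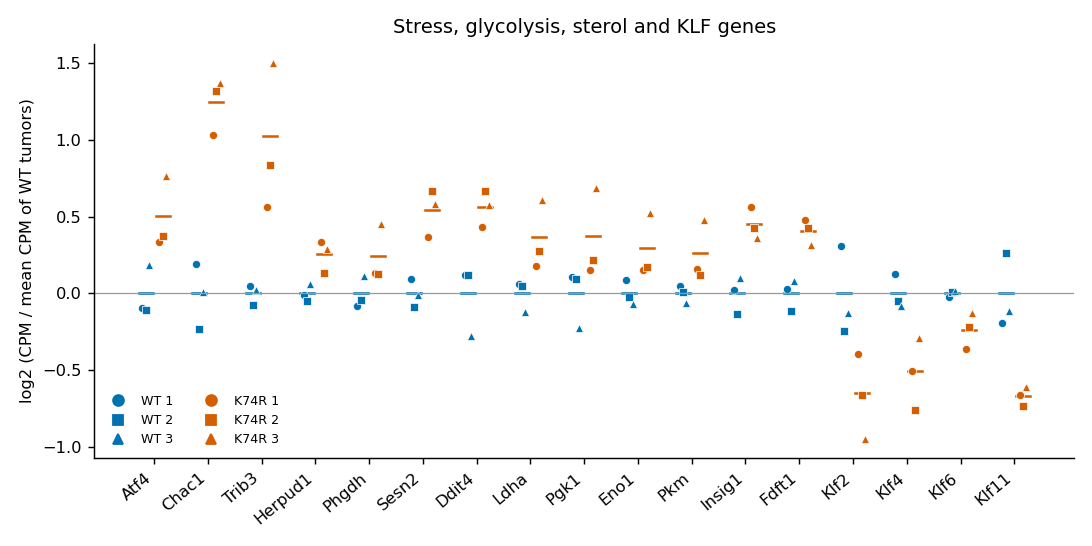
log2 of CPM over the mean CPM of the WT tumors for genes of the stress response, glycolysis, sterol synthesis (Insig1 and Fdft1) and the KLF family, with WT in blue, K74R in orange, a symbol per replicate number and bars at the group means on the CPM scale. Chac1 and Trib3 stand highest above the WT tumors, and Klf2, Klf4, Klf6 and Klf11 stand below them.

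Outside the lists, the genes with the smallest p were given as values. Foxp2, which encodes a forkhead transcription factor, stood at 45.2, 47.5 and 40.2 CPM (WT) against 25.1, 25.7 and 20 CPM (K74R), a log2 fold change of -0.91 (SE 0.12, edgeR adjusted p = 0.0607). Frmd4b stood at 27.1, 25.8 and 25.6 CPM against 16.4, 14.3 and 11 CPM, and Aoah, a lipopolysaccharide-inactivating enzyme gene of myeloid cells, at 14, 16.8 and 14 CPM against 7.94, 4.87 and 6.75 CPM (edgeR adjusted p = 0.175 for both). Pdcd10, a gene mutated in cerebral cavernous malformation, stood at 141, 144 and 147 CPM against 182, 184 and 185 CPM, a log2 fold change of 0.35 with a tight spread (SE 0.06, edgeR adjusted p = 0.194). No library of a genotype crossed into the other in any of these genes.

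The tumor effect was then set against that in bone marrow, where the same test called 115 of 14872 genes (0.773%). No gene was called in both tissues. The difference of the genotype effects, tested in a single model of all 16 libraries, passed for 7 of 18191 genes (0.0385%). The genotype is that of the host, and tumor libraries also hold RNA of MC38 cells, so the contrast is not between host tissues alone. The part of MC38 cells in it was not tested. Vill, which encodes a villin-like actin-binding protein, stood at 40.4, 41.5 and 36.3 CPM (WT) against 38.3, 33.5 and 29.3 CPM (K74R), while WT marrow had 31 to 34.3 CPM and K74R marrow 0 to 0.342 CPM. The difference was 7.61 on the log2 scale (SE 0.44, edgeR adjusted p = 6.07e-07). Its size rests on values near 0 in K74R marrow and is no measured fold. Cdkl2, a kinase gene, stood at 37.1 to 47.7 CPM in all tumors, against 0.368 to 0.439 CPM in WT and 1.54 to 1.98 CPM in K74R marrow. The clock gene Per1 stood at 48.5, 49.8 and 29.4 CPM (WT) against 29.9, 42 and 37.9 CPM (K74R), and at 16.6 to 24.5 CPM in WT and 67.9 to 76.5 CPM in K74R marrow. Rhob, which encodes a small GTPase, stood at 159, 116 and 134 CPM (WT) against 89.7, 102 and 72.4 CPM (K74R), without overlap, and was higher in K74R marrow. None of the 6 genes that fell in tumors passed this test (edgeR adjusted p from 0.166 to 0.246), so the difference from marrow was not shown. In marrow CT010467.1 stood at 2092, 1744 and 8099 CPM (WT) against 8845, 6907 and 4757 CPM (K74R), and WT marrow thus spread widely. The marrow log2 fold changes were positive, 0.78 for CT010467.1, 0.91 for Lars2, 0.89 for Gm23935, 1.01 for Gm24270 and 1.13 for Gm15564, and none passed (edgeR adjusted p from 0.276 to 0.459). For mt-Nd6 the marrow value was -0.12. Of the 16 genes listed as most changed in bone marrow, 9 were tested in tumors, with a median log2 fold change of -0.08. At a nominal p under 0.05, 2 were lower (Gbp2b and Rab6b) and none higher, beside 6.19% and 5.05% of all genes.

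**Figure D5:**
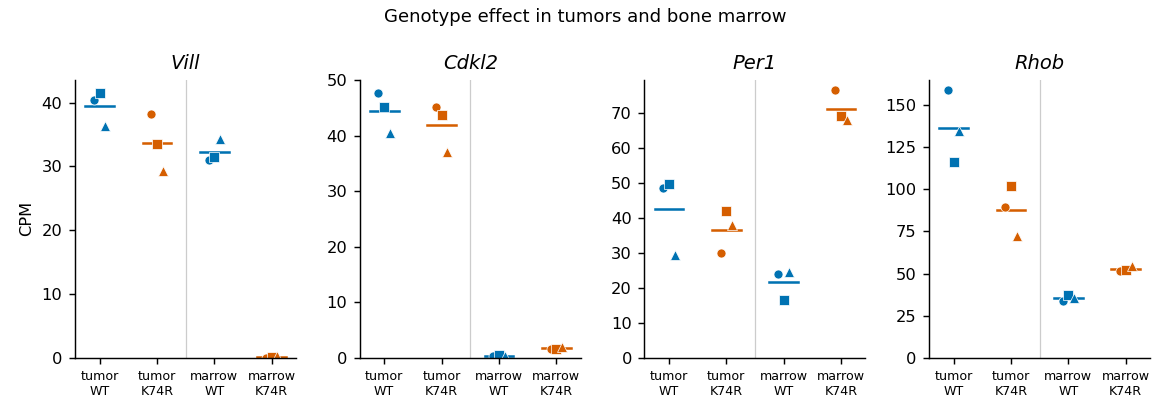
CPM of Vill, Cdkl2, Per1 and Rhob in tumor and bone marrow libraries, WT in blue and K74R in orange, with a symbol per replicate number and a bar at the group mean. In Vill the 6 tumors lie between 29.3 and 41.5 CPM, and K74R marrow lies between 0 and 0.342 CPM.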

How the data were processed

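RNA was measured in 6 MC38 tumors, 3 from WT and 3 from K74R mice. The authors deposited raw counts per gene, and the table is not normalized. Per the submitters' processing notes, reads were trimmed with Trimmomatic 0.38, aligned with HISAT2 2.1.0 and counted with featureCounts 1.6.0 on GRCm38. The annotation release, the strand setting and the handling of reads with several matches are, in the sources used here, not given. Identifiers were matched to GENCODE M21.

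The tumors were tested with R 4.3.3 and edgeR 4.0.16 (filterByExpr, trimmed mean of M-values, quasi-likelihood test, Benjamini-Hochberg adjustment, threshold 0.05). CPM are counts scaled to the library total times its composition factor. A standard error (SE) is the log2 fold change over the square root of F. The tissue difference was a contrast in a model of 6 groups. Motif windows came from RefSeq. The test was checked on simulated counts. The floor of 3 counts covers only counting error.

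Named genes were those past the threshold with libraries apart, a proper name and a log2 CPM of 0 or more. Under 10 in a direction, tested genes with the smallest p filled it up to 10. From each list came up to 2 members with the smallest p, and Klf1, Pdcd1, Cd274, the sex-linked genes, the bone marrow list and the most abundant genes were added. Other genes, such as Gm models, list members beside a count and Cd209f, were named after their values were seen. Some genes the rule took are given only in list counts. The comparison and lists were chosen with earlier results of these data known. Alternatives were other scalings and filters, DESeq2 1.42.0, limma-voom (limma 3.58.1), robust dispersion, all 16 libraries, a replicate block, each tumor left out, and length and GC offsets.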

Additional observations from a re-analysis of the deposited data

Results flagged for a closer look

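The genotype effect differed between tumors and bone marrow, by the test of the difference itself, in 7 genes. Tumor libraries mix host cells with MC38 cells, whose part in these differences was not tested. The differences (tumor minus bone marrow, log2 scale) were 7.61 for Vill, 2.78 for the ribosomal protein pseudogene Rpl3-ps1, -4.08 for AI506816, -1.95 for Gm8730, -2.15 for Cdkl2, -1.93 for Per1 and -1.20 for Rhob. AI506816 stood at 222 to 276 CPM in WT and 229 to 247 CPM in K74R tumors, and at 7.34 to 9.41 CPM in WT and 102 to 202 CPM in K74R marrow. Rpl3-ps1 stood at 14.3 to 19 CPM in WT and 10.6 to 15.3 CPM in K74R tumors, and at 53.1 to 57.5 CPM in WT and 5.6 to 6.7 CPM in K74R marrow. Gm8730 stood at 16.3 to 20.1 CPM in WT and 21.6 to 27.5 CPM in K74R tumors, and at 9.4 to 9.66 CPM in WT and 47.1 to 52.5 CPM in K74R marrow. Pseudogene counts depend on how reads that match the parent gene were assigned. Vill, Rpl3-ps1, AI506816 and Gm8730 passed in each of the 10 alternatives of this test, Cdkl2 in 8, Per1 in 6 and Rhob in 5.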

How the results depend on the processing

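The count of 6 genes was 810 with no filter on low counts (29690 genes tested, 293 higher and 517 lower), 202 with DESeq2, 0 when all 16 libraries shared a model (1386 of 18191 genes had p below 0.05 before adjustment), 10 with offsets for length and GC, 13 with the replicate block, 13 with offsets and the replicate block, and 0 to 124 with each tumor left out. It was 0 without Lars2, Mir6236, CT010467.1, Gm23935, Gm24270, Gm24187 and Gm15564, an alternative added after seeing the data: mt-Nd6 then did not pass either. All 6 genes were called again under the scalings, filters, limma-voom, robust dispersion, the block and the offsets, and each passed in 13 of 18 alternatives, failing with all 16 libraries, without any single WT tumor and without K74R tumor 2. Nothing states that the replicate numbers pair the tumors. Deviations of same-numbered tumors correlated at 0.03, -0.05 and 0.05, and those of differently numbered tumors at -0.08 to 0.05. With 3 tumors a group these values cannot settle whether the tumors were paired. The tissue difference, passed by 7 genes, was passed by 11 with RLE scaling, 73 with the 12 libraries of tumor and marrow, 6 with the replicate block, and 6 to 54 with each tumor left out (54 without K74R tumor 1). No named gene that passed reversed its sign in any alternative run. The causes were not tested. A list's direction rests on 3 tumors a group, and genes near 3 counts a library cannot show small changes.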

Other observations

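Genes of cholesterol synthesis stood higher in K74R tumors. The list of 21 enzymes of the pathway was written after Insig1 and Fdft1 had been seen among the genes with the smallest p, so it has no test of its own. Of the 21 genes, 19 had a positive log2 fold change, and the median was 0.29. At a nominal p under 0.05, 12 were higher and none lower, beside 5.05% and 6.19% of all genes. None passed by edgeR, and DESeq2 called 5 higher, beside 0.365% of all genes. Sqle, which encodes squalene epoxidase, stood at 87.6, 76.6 and 87.1 CPM (WT) against 127, 105 and 110 CPM (K74R) (log2 fold change 0.44, SE 0.09, edgeR adjusted p = 0.222). Fdft1, which encodes squalene synthase, stood at 57.2, 51.9 and 59.5 CPM against 78.2, 75.6 and 70 CPM, and Msmo1, a sterol oxidase gene, at 122.8, 117 and 129 CPM against 189, 152 and 161 CPM. Insig1, which encodes a protein that restrains the pathway, stood at 58.9, 53 and 62.2 CPM against 85.6, 77.8 and 74.7 CPM. None of these genes overlapped between the genotypes. The summed level of the 21 enzymes was 1521, 1360 and 1488 CPM (WT) against 2030, 1798 and 1636 CPM (K74R), highest in K74R tumor 1. Without WT tumor 2, 8 enzymes were higher at a nominal p under 0.05, and without K74R tumor 3, 16 were, beside 2.51% and 3.17% of all genes.

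Ifi202b and Serpinb2 varied widely within K74R tumors and were named after their values were seen. Ifi202b, an interferon-inducible DNA sensor gene, stood at 41.2, 18 and 47 CPM (WT) against 0.16, 20.6 and 0.299 CPM (K74R), so K74R tumors 1 and 3 were at or near the level of 3 counts and K74R tumor 2 was within the WT range. In marrow it stood at 49.9, 80.1 and 50.8 CPM (WT) against 29.7, 0 and 0.0683 CPM (K74R), so levels near 0 occurred in K74R libraries of both tissues and in no WT library of either. Neither tissue passed (edgeR adjusted p = 0.467 in tumors and 0.242 in marrow). Serpinb2, which encodes a plasminogen activator inhibitor, stood at 6.15, 0.105 and 0.782 CPM (WT) against 0.0533, 40.5 and 3.52 CPM (K74R).

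All 6 tumors expressed Y-linked genes: Ddx3y stood at 14.2 to 19 CPM (WT) against 11.6 to 17.2 CPM (K74R). Xist stood at 0.816 to 1.44 CPM (WT) against 0.853, 0.999 and 4.42 CPM (K74R), highest in K74R tumor 3.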
